A study of Mus musculus with 8 samples.

Results

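Eif4ebp3 encodes 4E-BP3, a small inhibitor of cap-dependent translation, and was described here in the livers of 8 male mice. The deposited table identifies a probe by a code that can hold an NCBI Gene ID, and probes with the ID of Eif4ebp3 were taken as members. This gave 1 probe of 24048, for 1 of 7413 genes that could be named. The gene was chosen by the difference of its signal between the 2 groups of mice, so its levels are given as a description with no test.

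Of the 8 mice, 4 were Gpx3 transgenic and 4 were B6/DBA wildtype, with 1 array per animal. All were aged 23 weeks and shared one feeding scheme, chow with 4% fat up to 11 weeks and 6% fat from then on. Gpx3 encodes a secreted glutathione peroxidase. The strain labels name a background, B6/DBA, only for the wildtype mice, so a difference of background could not be told apart from the transgene. The labels used here state neither the promoter that drives the transgene nor the number of founder lines, and neither the hour nor the feeding state at sacrifice. No probe was tied to Gpx3, so the transgene's own transcript does not check the labels. The titles of transgenic animals 1 to 3 share one stem, that of transgenic animal 4 has another, and all 4 wildtype titles share yet another. Stem and group therefore cannot be told apart. Wildtype animal 4 also differs from the other wildtype animals in the last letter of its title, and the labels do not say what stems or end letters mean.

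Most mRNAs are translated after eIF4E binds their 5′ cap and joins the scaffold eIF4G and the helicase eIF4A in the complex eIF4F. The 4E-BPs compete with eIF4G for eIF4E and so hold back cap-dependent initiation, and phosphorylation by mTORC1, the nutrient-sensing kinase complex, releases them. The family has 3 members, 4E-BP1, 4E-BP2 and 4E-BP3. In cultured human cells, transcription of the 4E-BP3 gene is raised by the factor TFE3 when mTORC1 is inhibited for long.

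The signal of a probe is a background-subtracted intensity in arbitrary units. Median signal per array was 11.0 to 14.2 units, 33.1% to 35.3% of probes read below 0, and the brightest probe reached 47379 to 59796 units. Log2 values were taken after setting signals under 16 units to 16, and 14759 probes with a mean above that floor were tested. As a check of the tissue, the 4 hepatocyte markers with a probe, Apoa1, Apoa2, Serpina1a and Ass1, summed to 103988 to 119071 units in transgenic livers, and to 101078 to 110944 units in wildtype ones. Of these Ass1, a urea cycle enzyme, had an unadjusted p under 0.05, with a log2 difference of 0.34 ± 0.13 (SE; adjusted p = 0.690 in limma). Bulk tissue was measured, so a change in the share of a cell type and a change of RNA per cell cannot be told apart.

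The Eif4ebp3 probe lay far above the floor in every liver. In transgenic animals 1 to 4 it read 1389, 1364, 1674 and 846 units. In wildtype animals 1 to 4 it read 324, 392, 341 and 574 units. The groups did not overlap, and the lowest transgenic value was 1.47 times the highest wildtype value. Ordered from low to high, the 4 wildtype livers came first, with animal 4 on top, followed by transgenic animal 4 and then by the other transgenic livers. Each liver was measured on a single array, so neighbours in this order could not be set against a technical error.

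The mean of Eif4ebp3 was 1318 ± 345 units over the transgenic group (SD, n = 4) and 408 ± 114 units over the wildtype group (SD, n = 4). The difference of mean log2 signal was 1.69, a ratio of 3.22. Relative to the wildtype mean of log2 signal, turned back to the linear scale, transgenic animals 1 to 4 stood at 3.50, 3.44, 4.22 and 2.13 times. On its own array the probe ranked above 91.6% to 95.2% of probes in transgenic livers and above 84.5% to 89.0% in wildtype livers.

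**Figure D1:**
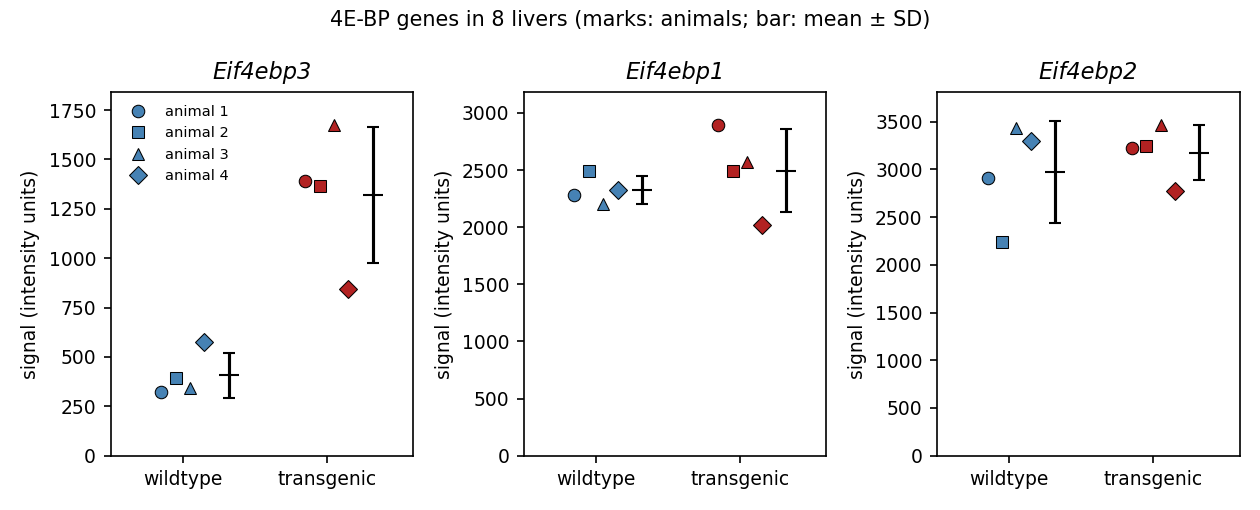
Signal in intensity units (vertical axes, from 0) of Eif4ebp3, Eif4ebp1 and Eif4ebp2 in 4 wildtype and 4 transgenic livers. Each mark is an animal and the bar at the right of each group is the mean with its SD. The Eif4ebp3 groups are apart, at 324 to 574 and 846 to 1674 units, and those of the other genes overlap.

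Eif4ebp3 also varied among animals of the same group. The SD of its log2 signal was 0.42 in transgenic and 0.37 in wildtype livers, and the pooled value of 0.40 was larger than that of 83.5% of the 8890 tested probes that were above 16 units on all arrays. The median of those probes was 0.20. The size of the Eif4ebp3 difference was the 9th largest of the 8890, whose median absolute log2 difference was 0.12. A high rank is largely fixed by the choice of this gene on the same difference. The animal furthest from its group mean was transgenic animal 4, which was lower, and wildtype animal 4 was the one wildtype liver above its group mean on the log2 scale. Over the same 8890 probes, log2 signal of transgenic animal 4 had a Pearson correlation of 0.976 to 0.981 with the other transgenic livers. With the wildtype livers it was 0.982 to 0.985. Pairs of the other transgenic livers with wildtype ones ran from 0.969 to 0.985, so the ranges touch and the differences are small. A place of transgenic animal 4 near the wildtype group was thus not seen at Eif4ebp3 alone, and its part in the Eif4ebp3 level was not tested. Leaving out transgenic animal 4 raised the log2 difference to 1.89, and leaving out transgenic animal 3 lowered it to 1.56.

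**Figure D2:**
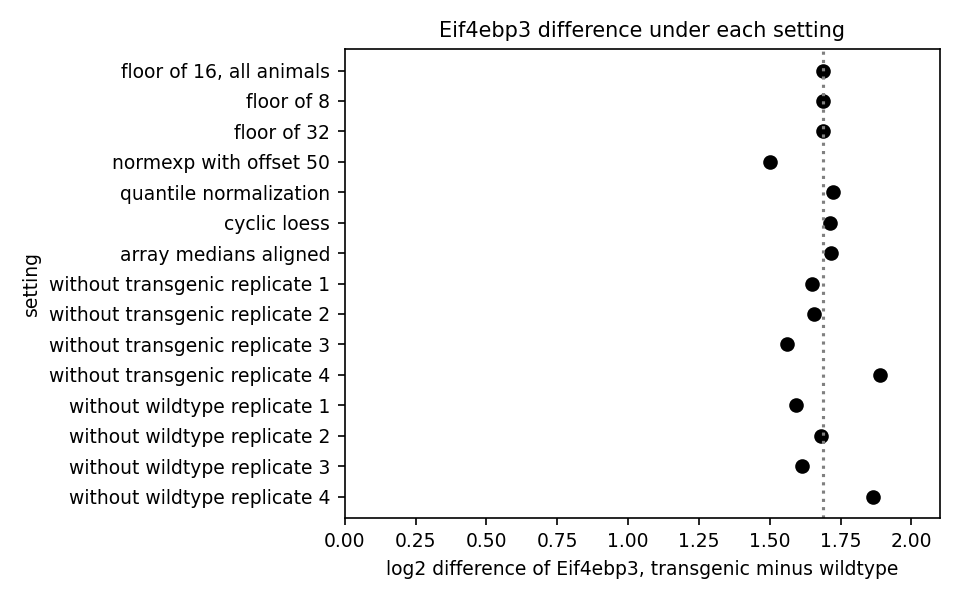
Log2 difference of Eif4ebp3, transgenic minus wildtype (horizontal axis), with each setting of the processing or each animal left out on a row of its own. The dotted line is the value with all animals and a floor of 16, 1.69, and the points lie between 1.5 and 1.89.

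The difference did not extend to the other 4E-BP genes at a size these arrays could separate from the spread. Eif4ebp1, the mTORC1-regulated 4E-BP best known from insulin signalling, read 2894, 2495, 2572 and 2016 units in transgenic animals 1 to 4. It read 2279, 2495, 2200 and 2322 units in wildtype animals 1 to 4. The ranges overlapped, and the log2 difference was 0.09 ± 0.12 (SE; adjusted p = 0.826 in limma). Transgenic animal 4 was the lowest liver of the 8 for Eif4ebp1, as it was the lowest transgenic liver for Eif4ebp3.

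Eif4ebp2, the third 4E-BP gene, read 3221, 3249, 3464 and 2772 units in transgenic and 2912, 2238, 3437 and 3295 units in wildtype animals 1 to 4. The groups overlapped there too, with a log2 difference of 0.11 ± 0.15 (SE; adjusted p = 0.832 in limma). Without wildtype animal 2, the lowest liver, that difference was -0.02. A second Eif4ebp1 probe read below the floor in all 8 livers. Over the 8 livers the Pearson correlation of log2 signal with Eif4ebp3 was 0.516 for Eif4ebp1 and 0.413 for Eif4ebp2, and without the 2 animals farthest from the median of Eif4ebp3 it was 0.446 and 0.285.

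Next along the pathway are the partners that 4E-BPs bind and compete with. Across the 14759 probes, limma with Benjamini-Hochberg adjustment called 0 probes (0%) at an adjusted p under 0.05, and 1006 probes (6.82%) had an unadjusted p under 0.05. Of the latter 476 (3.23%) were higher and 530 (3.59%) lower in transgenic livers. Among 27 cap-binding and eIF4F genes, 17 were tested, 9 of them with a positive and 8 with a negative log2 difference. None passed the adjusted threshold and 1 of the 17 had an unadjusted p under 0.05. The median log2 difference was 0.01, against -0.02 over all tested probes, and it was -0.004 after normexp correction.

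Eif4e, which encodes the cap-binding protein that 4E-BPs sequester, had a mean of 105 ± 13.3 units in transgenic livers and of 103 ± 13.3 units in wildtype ones (SD, n = 4 each). The log2 difference was 0.02 ± 0.13 (SE; adjusted p = 0.969 in limma), and it turned to -0.06 without transgenic animal 1 and to -0.07 without wildtype animal 4. Eif4e2, a cap-binding relative of eIF4E, had a log2 difference of -0.11 at its brighter probe and 0.02 at the other, and Eif4e3 had -0.04 and 0.08.

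The eIF4G scaffolds with a named probe in the list, Eif4g3 and Eif4g2, were no clearer, and Eif4g1 had none there. Eif4g3 averaged 1065 ± 202 against 1081 ± 284 units (SD, n = 4 each), a log2 difference of -0.003 whose sign changed with the scaling of the arrays (0.02 after quantile normalization). Eif4g2, a scaffold that does not bind eIF4E, was dim, at 26.9 ± 5.49 against 31.2 ± 11.8 units (SD, n = 4 each).

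The members of the eIF4F list with the smallest p were Paip2, Eif4a3, Mknk2 and Eif4b. Paip2, an inhibitor of the poly(A)-binding protein, had a log2 difference of 0.34 ± 0.14 (SE; adjusted p = 0.727 in limma). Eif4a3, a helicase of the exon junction complex related to eIF4A, read 525 to 608 units in transgenic and 624 to 724 units in wildtype livers, with no overlap. Its log2 difference was -0.19 ± 0.08 (SE; adjusted p = 0.734 in limma). Groups without overlap occurred at 526 of the tested probes (3.56%), 256 of them (1.73%) with the transgenic group higher. Eif4b, a cofactor of the eIF4A helicase, had a log2 difference of 0.28 at its brighter probe, and its other probe was below the floor.

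Mknk2 encodes MNK2, a kinase that phosphorylates eIF4E on the scaffold. It read 3589, 2821, 2830 and 1588 units in transgenic and 1791, 2037, 1832 and 1737 units in wildtype animals 1 to 4. Transgenic animals 1 to 3 lay above all wildtype livers and transgenic animal 4 below all of them. The log2 difference was 0.49 ± 0.23 (SE; adjusted p = 0.754 in limma), and r with Eif4ebp3 over the 8 livers was 0.747.

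Other steps of translation were followed through 37 further initiation factor genes, of which 13 were tested, 8 with a positive and 5 with a negative log2 difference and a median of 0.06. None passed, and 1 had an unadjusted p under 0.05. That gene was Eif2s2, which encodes the β subunit of eIF2, the factor that brings initiator tRNA to the ribosome. Eif2s2 read 445, 428, 437 and 481 units in transgenic and 497, 503, 520 and 512 units in wildtype animals 1 to 4. The groups did not overlap, and the log2 difference was -0.18 ± 0.06 (SE; adjusted p = 0.663 in limma). The eIF3 subunits Eif3c and Eif3e had log2 differences of 0.37 and 0.44 at dim probes, and a dimmer Eif3c probe had -0.30.

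Elongation and release factors had 7 tested genes of 10, 2 positive and 5 negative, with a median of -0.01 that was 0.02 after quantile normalization. Eef2, the elongation factor that moves the ribosome along the mRNA, had a log2 difference of -0.08 ± 0.08 (SE) at its brightest probe. No member had an unadjusted p under 0.05.

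Upstream regulators were examined next. Of 49 mTORC1 pathway genes, 18 were tested, with 7 positive and 11 negative log2 differences and a median of -0.03. None passed, and 2 had an unadjusted p under 0.05, 1 in each direction. Rictor, the defining subunit of the other mTOR complex, mTORC2, read 390 to 467 units in transgenic and 361 to 385 units in wildtype livers, without overlap, a log2 difference of 0.18 ± 0.07 (SE; adjusted p = 0.704 in limma). Rptor, which encodes the substrate-recruiting subunit of mTORC1 that holds 4E-BPs, had a log2 difference of -0.62, but its probe read 6.6 to 20.6 units in transgenic and 21.6 to 37.0 units in wildtype livers. Those values lie about the floor, so the size depends on it. Akt2, a kinase upstream of mTORC1, had 0.16 and Lamtor1, an anchor of mTORC1 at the lysosome, -0.10.

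TFE3 and TFEB are transcription factors of lysosome and autophagy genes that mTORC1 holds in the cytoplasm. Of 34 listed factors and targets 12 were tested, with 6 positive and 6 negative log2 differences and a median of -0.01. Neither Tfe3 nor Tfeb had a named probe in the list, so the factors themselves were not measured there. Only Map1lc3b, an autophagosome membrane protein gene, had an unadjusted p under 0.05 in this list. It read 1386 to 1599 units in transgenic and 954 to 1259 units in wildtype livers, without overlap, a log2 difference of 0.41 ± 0.10 (SE; adjusted p = 0.562 in limma). Naglu, Neu1 and Lamp2, which encode lysosomal enzymes and a lysosomal membrane protein, had log2 differences of 0.16, -0.11 and 0.11, with overlapping groups.

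The integrated stress response, which slows initiation through eIF2 rather than through the cap, had 9 tested genes of 48. Their median log2 difference was -0.15, with 4 positive and 5 negative values. None passed, and 1 had an unadjusted p under 0.05, Ppp1r15b, which encodes a regulatory subunit of the eIF2α phosphatase. Ppp1r15b read 89.6 to 107 units in transgenic and 116 to 130 units in wildtype livers, a log2 difference of -0.27 ± 0.08 (SE; adjusted p = 0.606 in limma). The tRNA synthetase genes Aars and Sars had -0.17 and -0.15 at their brightest probes, and Vldlr, a lipoprotein receptor, had -0.60 at a dim probe with 1 array at the floor.

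**Figure D3:**
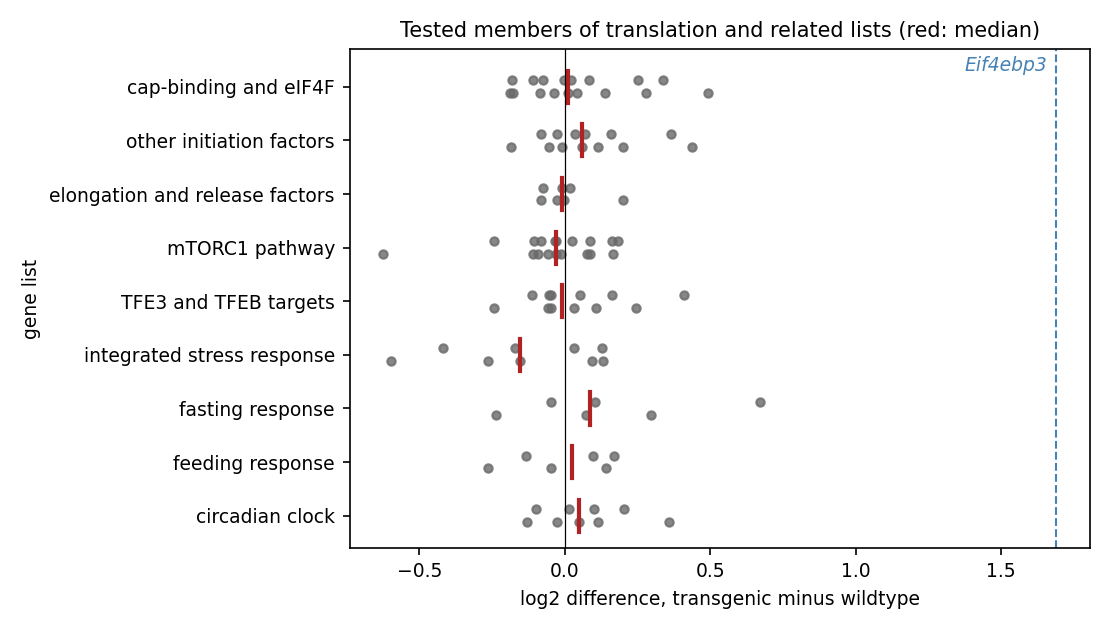
Log2 difference, transgenic minus wildtype (horizontal axis), of each tested gene of 9 lists, with a point for each gene's brightest probe and a red line at the list median. The dashed line marks Eif4ebp3 at 1.69. List medians run from -0.15 to 0.09, and every tested member lies below Eif4ebp3, which was chosen for its difference.

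Feeding and time of day set many liver transcripts, and neither is stated for these mice. The fasting list had 6 tested genes of 32, 4 positive and 2 negative, with a median of 0.09 that turned to -0.003 without transgenic animal 1 and to -0.008 without wildtype animal 2, and was 0.20 without wildtype animal 3. Pck1, the enzyme that commits carbon to gluconeogenesis, had an unadjusted p under 0.05, at a log2 difference of 0.67 ± 0.24 (SE; adjusted p = 0.667 in limma). Its r with Eif4ebp3 was 0.739, and transgenic animal 4 was again the lowest transgenic liver, at 441 units. Cited2, Angptl4 and Foxo1 had log2 differences of 0.30, -0.24 and 0.07, and that of Foxo1 was -0.04 without transgenic animal 1. The feeding list had 6 tested genes of 20, 3 in each direction, with a median of 0.03, none with an unadjusted p under 0.05. Fasn and Acaca, enzymes of fatty acid synthesis, had 0.14 and 0.17, and Elovl6, a fatty acid elongase, had -0.13, a value that turned to 0.02 without wildtype animal 2 and to 0.0089 without transgenic animal 4.

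The circadian list had 9 tested genes of 26, 6 positive and 3 negative, with a median of 0.05. Csnk1e, a kinase that phosphorylates PER proteins, was the only one of the 9 with an unadjusted p under 0.05. It read 182 to 233 units in transgenic and 146 to 176 units in wildtype livers, a log2 difference of 0.36 ± 0.11 (SE; adjusted p = 0.606 in limma). Its second probe had 0.42, and r with Eif4ebp3 was 0.897 and 0.828 at the 2 probes. Csnk1d and Hlf had log2 differences of 0.20 and 0.11, and the Hlf probe was at the floor in most livers.

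Markers of other cells in the sample were compared as whole lists. The erythroid list had the most negative median, -0.77, with all 4 tested members of 12 negative, 3 at an unadjusted p under 0.05 and none past the adjusted threshold. Their summed signal was 9659 to 10825 units in transgenic and 11342 to 25126 units in wildtype livers. Hba-a1, an α-globin gene with a near-identical copy that its probe may share, read 9751, 10005, 10257 and 9020 units in transgenic and 16625, 23631, 22203 and 10781 units in wildtype animals 1 to 4. The lowest wildtype liver was animal 4, the wildtype liver with the most Eif4ebp3, and r between Hba-a1 and Eif4ebp3 was -0.825 (-0.380 with group means subtracted). The part of red cell RNA in the Eif4ebp3 result was not tested.

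Endothelial markers had 4 of 5 tested genes negative and a median of -0.31, with Emcn (-0.48) at an unadjusted p under 0.05. Clec4g, the brightest of the 5, had -0.06, Egfl7 -0.31 and Eng 0.08. Pecam1 had -1.04, but its probe read 12 to 84 units in transgenic livers, with 1 array at the floor, so the size has little meaning. The summed endothelial signal was 4024 to 4688 units in transgenic and 4182 to 4884 units in wildtype livers. Stellate cell markers had 4 of 5 negative and a median of -0.03, and Lrat, which esterifies vitamin A, was at an unadjusted p under 0.05 with a log2 difference of -0.46. Their summed signal was 7489 to 8367 against 7929 to 8462 units, and Col1a1, Col3a1 and Acta2 were at the floor in all 8 livers.

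Macrophage markers had 2 of 4 negative (median 0.07; -0.02 with a floor of 32; summed signal 543 to 964 against 555.3 to 962 units), and Lyz2 was at the floor at its brightest probe. Lymphocyte and MHC class II markers had 2 of 3 negative (median -0.24, 796 to 1250 against 877 to 1361 units). Neutrophil markers had 2 of 5 negative (median 0.07, 44.8 to 124 against 61.0 to 90.3 units), and Mpo never rose above 16 units. Each of those 5 also had arrays below 16 units, so their signs and median have little meaning. With a floor of 8, Cxcr2 turned from 0.24 to -0.09 and Ltf from -0.08 to 0.08. Cd68 of the macrophage list and Cd3e of the lymphocyte list also read below 16 units on most arrays. Cd3e turned from 0.18 to -0.02 with a floor of 8. The adipose marker Fabp4 read 36.6 to 82.2 against 23.5 to 44.0 units. Of pancreas markers, Prss1 and Try4 were at the floor and Cela2a, at a dim probe, had a log2 difference of 0.99 (summed signal 36.1 to 77.7 against 0.0 to 49.3 units). Of the tested members of these 5 sets none had an unadjusted p under 0.05, and the part of these cells in the Eif4ebp3 result was not tested.

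Neighbouring genes were looked up by their order in RefSeq on mouse chromosome 18. Ankhd1 lies 2 places before Eif4ebp3 in that order, and in humans transcripts that read through from ANKHD1 into EIF4EBP3 are known. Among the 5 nearest genes on each side, 1 had a named probe, Slc35a4, a nucleotide sugar transporter gene 3 places away. Slc35a4 read 323 to 369 units in transgenic and 290 to 353 units in wildtype livers, with overlap, and its log2 difference was 0.09. Which transcript the Eif4ebp3 probe reads is not known from these files.

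Genes with a pattern like that of Eif4ebp3 were ranked by the Pearson correlation r of log2 signal over the 8 livers, among 8889 other probes above 16 units on all arrays. The 8 points share the 2 groups, so r mostly ranks probes by how cleanly they follow the same split, and no p is given. Over all 8889 probes r had a median of -0.07 and quartiles of -0.41 and 0.27. At 0.9 or more there were 25 probes (0.281%) and at -0.9 or less 27 (0.304%), 52 in all (0.585%), of which 25 had a gene name. The split moved with the scaling, to 46 and 19 after quantile normalization, 39 and 27 after cyclic loess and 33 and 20 with array medians aligned, and it was 32 and 175 without wildtype animal 3. The named genes on either side of the upper limit were Sin3a (0.901) and Ppp2r5e (0.898), and at the lower limit Tcta (-0.90) and Sumo3 (-0.899).

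The 12 named genes of highest r were Lzts3, Ttpal, Pcgf1, Pheta1, Cdk19, Rbfox2, Pdlim1, Ppargc1b, Dedd2, Kcnn2, Sin3a and Ppp2r5e. Lzts3, a leucine zipper protein known from neuronal synapses, read 508, 534, 552 and 493 units in transgenic and 453, 468, 442 and 485 units in wildtype animals 1 to 4 (r = 0.958). Ttpal, a relative of the tocopherol transfer protein, read 58.9, 56.8, 61.6 and 50 units against 34.7, 36.6, 40.9 and 49.4 units (r = 0.957). In both genes transgenic animal 4 and wildtype animal 4 stood next to each other in the middle of the order, as they did for Eif4ebp3. That order is largely fixed by the choice of these genes on r. The size of the change was smaller than that of Eif4ebp3, at log2 differences of 0.18 for Lzts3 and 0.50 for Ttpal.

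Pcgf1, a subunit of a Polycomb repressive complex, read 291 to 330 units in transgenic and 260 to 271 units in wildtype livers (r = 0.956). Cdk19, a kinase of the Mediator complex, read 215 to 252 against 193 to 214 units (r = 0.948), and Sin3a, a scaffold of histone deacetylase complexes, 260 to 310 against 233 to 253 units (r = 0.901). These 3 genes act on transcription, and so does Ppargc1b, which encodes the coactivator PGC-1β. Ppargc1b had r = 0.926 and a log2 difference of 0.49.

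The remaining genes of highest r have varied roles. Pheta1, an endosomal trafficking protein, had r = 0.953, the splicing factor Rbfox2 0.944, and Pdlim1, a cytoskeletal PDZ and LIM protein, 0.928. Dedd2, a death effector domain protein, had r = 0.917, the potassium channel Kcnn2 0.901 and Ppp2r5e, a regulatory subunit of protein phosphatase 2A, 0.898. Kcnn2 and Ppargc1b lie on the same chromosome as Eif4ebp3. Together the 12 named genes of highest and the 12 of lowest r lie on 16 chromosomes, and the share of all probes on that of Eif4ebp3 is not given here. Of 2 probes of Iah1, an esterase, the dimmer one also had r = 0.902, and the brighter one was not among the 52. The groups did not overlap at any of the 12, against 5.14% of the 8889 probes, a share fixed largely by the choice on r.

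**Figure D4:**
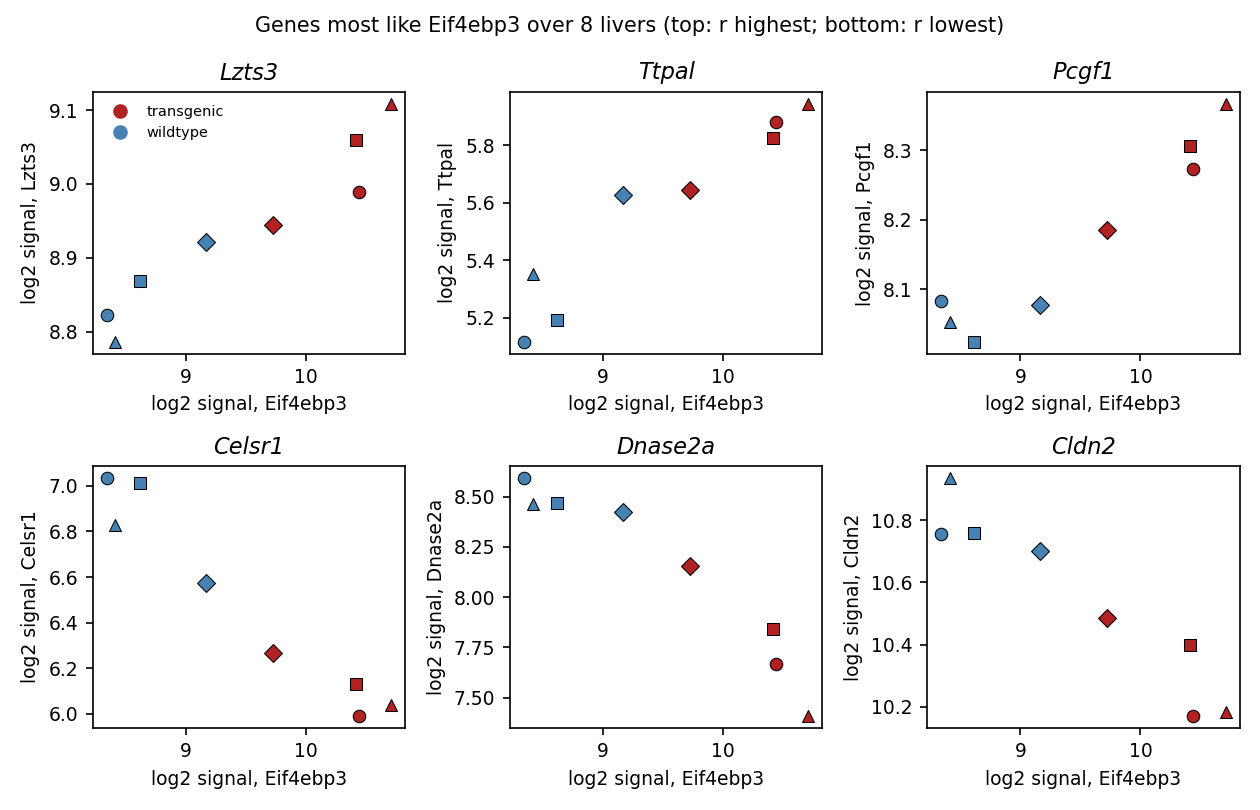
Log2 signal of 6 genes (vertical axes) against log2 signal of Eif4ebp3 (horizontal axes) in 8 livers, with the animal number given by the mark shape, circle, square, triangle and diamond for animals 1 to 4. Lzts3, Ttpal and Pcgf1 rise with Eif4ebp3 (r of 0.956 to 0.958) and Celsr1, Dnase2a and Cldn2 fall (r of -0.972 to -0.954), and the diamonds lie in the middle. Their place is largely fixed by the choice on r.

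The 12 named genes of lowest r were Celsr1, Dnase2a, Cldn2, Ppm1m, Acp2, Srp9, Mmrn2, Eif2s2, Inpp5a, Tax1bp3, Prune1 and Tcta. Celsr1, a cadherin of planar cell polarity, read 63.6, 70.0, 65.8 and 76.9 units in transgenic and 131, 129, 114 and 95.4 units in wildtype animals 1 to 4 (r = -0.972). Dnase2a, the lysosomal DNase II, read 203, 230, 170 and 285 units against 386, 354, 353 and 343 units (r = -0.957). The liver with the most Eif4ebp3, transgenic animal 3, had the least Dnase2a. The liver with the least Eif4ebp3, wildtype animal 1, had the most Dnase2a. Matches of this kind are largely fixed by the choice on r.

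Acp2, another lysosomal enzyme, read 240 to 289 units in transgenic and 314 to 376 units in wildtype livers (r = -0.931). Cldn2, a tight junction claudin, had r = -0.954 and Ppm1m, a protein phosphatase, -0.949. Srp9, a subunit of the particle that directs nascent secretory proteins to the endoplasmic reticulum, had r = -0.928, and Eif2s2, described above, -0.916. Mmrn2, an extracellular matrix protein of endothelium, had r = -0.917, and Inpp5a, an inositol phosphate phosphatase, -0.912. The PDZ protein Tax1bp3 (-0.904), the phosphatase Prune1 (-0.903) and Tcta (-0.90) followed. The groups overlapped at Tax1bp3 and Prune1 and not at the other 10.

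Group means were then subtracted, which removes the shared split into 2 groups. After this all 24 genes kept the sign of r, as did all 52 probes, which the choice of probes with so extreme a pooled r largely fixes. The group-centred value was smaller in each of the 24 and at 0.8 or more in absolute size in 7. It was 0.883 for Lzts3, 0.864 for Ttpal, 0.854 for Cdk19, -0.889 for Prune1 and -0.827 for Tax1bp3, but 0.25 for Ppp2r5e. A second bright Tax1bp3 probe had a group-centred r of -0.856. Without the 2 animals farthest from the median of Eif4ebp3, transgenic animal 3 and wildtype animal 1, r over the other 6 ranged from 0.83 to 0.972 in absolute size. Spearman's rho ranged from 0.762 to 0.976 in absolute size.

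**Figure D5:**
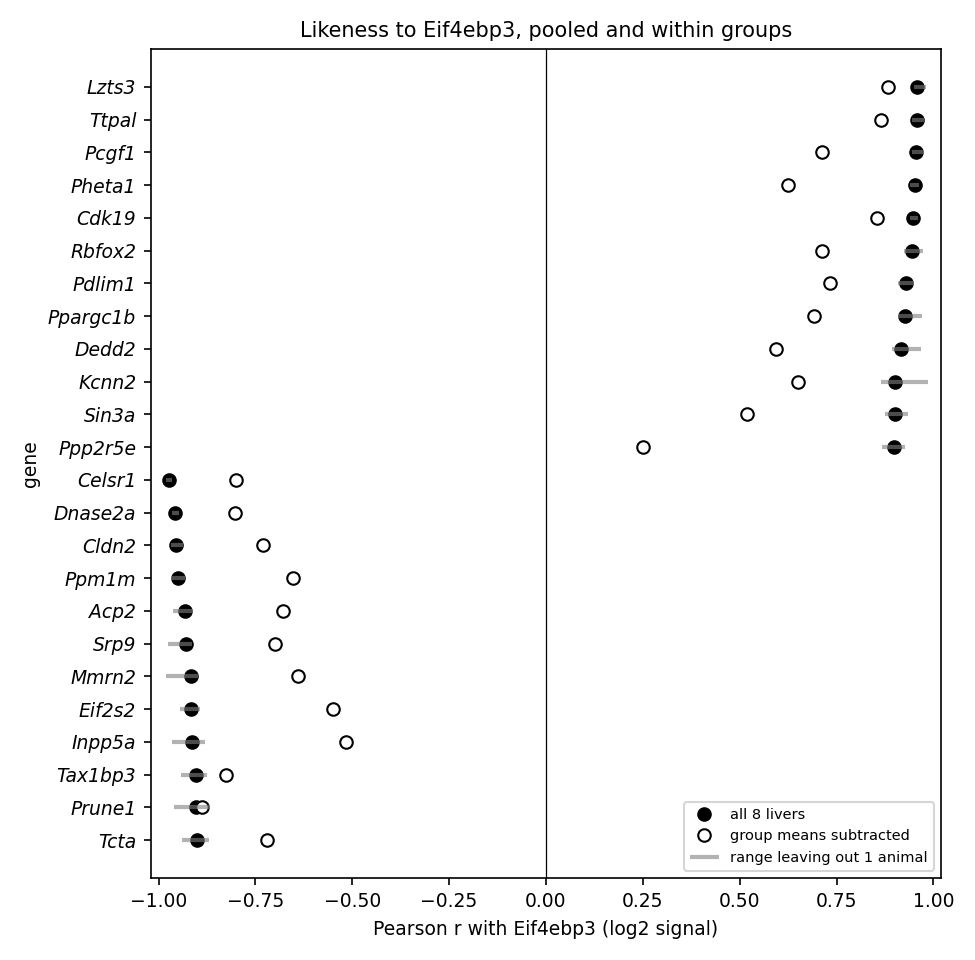
Pearson r with Eif4ebp3 (horizontal axis) of the 12 named genes of highest and the 12 of lowest r. Filled points use all 8 livers, open points the same values after subtracting group means, and grey bars span the values with 1 animal left out. The open points run from 0.25 to 0.889 in absolute size, and the choice on pooled r largely fixes their side of 0.

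Ranked on group-centred values alone, other genes came first. The animals that departed furthest from their group mean of Eif4ebp3 were transgenic animal 4, below it, and wildtype animal 4, above it. At an absolute group-centred r of 0.9 or more there were 85 probes (0.956%), and 1 of the 52 probes counted above was among them. The named genes of highest group-centred r were Adgrl1 (0.990), an adhesion receptor, Spata2l (0.987), Sbf2 (0.984), Slc35c2 (0.965) and Ecsit (0.932). The named genes of lowest value were Pkp2 (-0.977), a desmosomal protein, the chaperone Hsp90aa1 (-0.974), the ubiquitin ligase Trim25 (-0.952), Sh3bgrl2 (-0.950) and the Golgi protein Gorasp2 (-0.949).

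Hsp90aa1 read 183, 203, 166 and 376 units in transgenic and 329, 282, 317 and 204 units in wildtype animals 1 to 4. Transgenic animal 4 was the highest of the 8 livers, and wildtype animal 4 the lowest wildtype liver. Spata2l read 1017, 917, 1114 and 675 units against 679, 826, 723 and 1026 units, with transgenic animal 4 lowest and wildtype animal 4 highest in its group. Such places are largely fixed by the choice of these genes on group-centred r. The groups overlapped at all 10 of these genes. In the eIF4F list, Eif4a3 had a group-centred r of 0.923 and Paip2 of -0.899, although pooled r was -0.455 and 0.373.

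Promoter windows were searched because TFE3 reads E-boxes. The sequence CACGTG, an E-box that is the same on both strands, was looked for from 250 bases before to 50 bases after the start of the 24 genes of highest and lowest r. RefSeq windows (GRCm38.p6) were used for 15 of the 24, 5 of highest and 10 of lowest r, and 0 of the 15 held the motif, against 7.24% of the windows of 27025 genes. The absence says only that these letters are not in these windows, and Eif4ebp3 itself was not among the genes counted. The windows of Lzts3 (chr2:130642795-130643094, minus strand) and Dnase2a (chr8:84908505-84908804, plus strand) are shown, as the genes of highest and lowest r that had a window, with the base at the start in capitals.
Lzts3: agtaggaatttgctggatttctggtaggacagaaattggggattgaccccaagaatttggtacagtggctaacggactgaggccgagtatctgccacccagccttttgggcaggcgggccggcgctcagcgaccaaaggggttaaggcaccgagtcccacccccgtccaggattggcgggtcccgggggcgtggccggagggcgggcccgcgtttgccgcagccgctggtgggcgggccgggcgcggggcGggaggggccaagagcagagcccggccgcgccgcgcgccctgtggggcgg
Dnase2a: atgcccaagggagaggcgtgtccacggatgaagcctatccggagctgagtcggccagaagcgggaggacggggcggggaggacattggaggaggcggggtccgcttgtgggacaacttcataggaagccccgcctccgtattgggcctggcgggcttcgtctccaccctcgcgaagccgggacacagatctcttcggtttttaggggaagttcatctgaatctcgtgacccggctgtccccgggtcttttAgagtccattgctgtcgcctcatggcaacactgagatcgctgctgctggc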

How the data were processed

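Liver total RNA (100 ng) was amplified and biotin-labelled for 1-colour Illumina bead arrays, per the labels' protocols. The authors deposited an intensity on a linear scale for each probe and animal, with background subtracted to the extent that values fall below 0. BeadStudio 1.5.1.3 is the tool given by the submitters' processing notes, and no source used here says whether the arrays were also scaled. Another deposited table, without normalization per the file headers, holds 64 value columns under chip positions that no label ties to an animal, and it was not used.

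Gene numbers were present in 9523 probe codes, and 8884 of them (93.3%) matched a gene in RefSeq's table for GRCm38.p6, which served for symbols and for the order of genes. Another 9 probes matched by accession. Signals under 16 were raised to 16 before log2, with no further normalization. The filter kept 14759 probes whose mean log2 signal exceeded the lower quartile, which was 4. Differences between groups were tested two-sided in limma 3.58.1 (R 4.3.3), with Benjamini-Hochberg adjustment across these probes at 0.05, and the script was checked on simulated data. The labels do not say how the animals are related, so a p reflects only the variation among these mice, and their number limits the precision. List counts use the brightest probe of a gene and include tested probes that were at the floor in some livers. Above 16 units on all arrays were 10 of 12 tested TFE3 and TFEB genes and 7 of 9 integrated stress response genes. The same held for 5 of 7 elongation and release factors and 7 of 9 circadian genes.

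Likeness to Eif4ebp3 was Pearson's r over the 8 animals. Named were the 12 genes of highest and of lowest r, the 5 of highest and of lowest group-centred r, up to 4 members of smallest p per list, Eif4e and the eIF4G genes, 4E-BPs and neighbours, with provisional names left out. Others (Eif4e2, Eif4e3, Sumo3, Iah1, Eef2, Lyz2 and genes at the floor on some or all arrays) were named after their values were seen. Eif4ebp3, the 19 gene lists and the rules were chosen with earlier results of these data known. Alternatives were floors of 8 and 32, normexp with an offset of 50, quantile, cyclic loess and median scaling, other filters, a trended robust variance, other measures of likeness, and leaving out each animal. Values of some list members are not reported here.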

Additional observations from a re-analysis of the deposited data

Results flagged for a closer look

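Within groups of 4, a single animal stood apart from the other 3 by a large gap relative to the range of the group in 8 of 188 groups looked at, and chance gives about 1 in 20. Among genes that follow Eif4ebp3 within groups, Gorasp2 read 1184 units in transgenic animal 4 against 962 to 982 in the other 3, and 843 units in wildtype animal 4 against 1004 to 1028. Pkp2 read 299.9 units in wildtype animal 4 against 368 to 378, and Sbf2 66.4 units in the same animal against 47.6 to 50.1. Gorasp2, Pkp2 and Sbf2 were chosen on group-centred r, which favours gaps in transgenic animal 4 and wildtype animal 4. The rate of 1 in 20 therefore does not hold for them. Ppp2r5e, of the genes of highest r, read 1047 units in transgenic animal 1 against 947 to 960. Elsewhere Hbb-b2 read 293 units in transgenic animal 1 against 386 to 403, Sars 701 units in transgenic animal 2 against 815 to 839, and Fabp4 82.2 units in transgenic animal 3 against 36.6 to 40.4.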

How the results depend on the processing

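The log2 difference of Eif4ebp3 lay between 1.5 (normexp with an offset of 50) and 1.72 (quantile normalization) under other scalings and between 1.56 and 1.89 when 1 animal was left out. Probes past the adjusted threshold numbered 0 with all animals, 1 with a floor of 32, 1 after quantile normalization, 1 with array medians aligned, 2 with a trended robust variance and 2 after normexp, and 0 to 1 when 1 animal was left out (1 without transgenic animal 1, 2, 3 or 4 or without wildtype animal 1). Of the 2 probes after normexp, 1 was the Eif4ebp3 probe, which was chosen for this difference. The probes at an absolute r of 0.9 or more, 52 with all animals, numbered 84 by Spearman's rho, 85 with group means subtracted and 123 without the 2 farthest animals. Leaving out 1 animal gave 76 to 207, with 120, 89, 83 and 132 without transgenic animals 1 to 4, and 76, 92, 207 and 111 without wildtype animals 1 to 4. Fewer animals leave fewer points, and for the other settings the cause was not tested. All 24 named genes kept their sign under every alternative tried, and 23 or 24 kept an absolute r of 0.8 or more, except 7 with group means subtracted. No paired analysis was possible because the labels give no replicate numbers and do not say whether the end letters that some titles share across groups match animals. Leaving out 1 animal turned the sign of 7 list medians near 0, feeding response (-0.06 to 0.14), fasting response (-0.008 to 0.20), macrophage (-0.14 to 0.14), neutrophil (-0.08 to 0.10), cap-binding (-0.04 to 0.07), TFE3 and TFEB (-0.04 to 0.02) and hepatocyte (-0.02 to 0.05), and brought that of the elongation list to about 0. With 4 arrays a group, probes near the floor, such as Rptor, have no reliable size.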
